A study of Mus musculus with 8 samples.

Results

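The homeobox genes of 4 nuclei of the mouse hypothalamus were described here as a list of 53 genes, taken by name from 20284 named genes on the array. Every probe whose RefSeq accession belongs to a listed gene was used. All 53 genes had a probe, 42 of them 1 probe and 11 several, giving 67 probes. The arcuate nucleus (Arc), the ventromedial hypothalamus (VMH), the dorsomedial hypothalamus (DMH), and the lateral hypothalamus (LH) of female C57BL/6 mice (C57BL/6J in the methods) at 3 months of age were cut out by laser microdissection, with no treatment or transgene, and each nucleus was measured on 2 arrays, called Arc1 and Arc2 and so on. The study sought genes that mark the DMH. Nothing in the labels ties an array to an animal, so p-values measure the spread between the arrays, and 2 arrays a nucleus limit the precision.

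Homeobox genes encode transcription factors that bind DNA through a homeodomain. In the embryo they divide the brain into territories, and many stay active in adult neurons as part of the identity of a cell type. They are sorted into classes by the homeodomain and the domains beside it. Among these are the LIM class, the ANTP class with the *Dlx*, *Hmx*, and *Nkx* genes, and the PRD-like class with *Otp* and the *Otx* genes. Others are the SINE class with *Six3* and *Six6* and the TALE class of cofactors and Iroquois genes. The POU, CUT, and zinc finger (ZF) classes are further ones. In the hypothalamus, *Nkx2-1*, *Otp*, *Bsx*, *Isl1*, and the *Hmx* genes are known for the formation or the peptide expression of neurons that control feeding, growth, and stress.

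Values are scaled signals, the processed signal of a probe after each array was divided by its 75th percentile. A probe is called measured on an array when the software marked it well above background, and the dimmest such signals lay between 79.3 on LH1 and 132 on LH2. Differences are log2 differences with the SE of the limma model, and a probe is called when its p, adjusted by Benjamini and Hochberg over the 28896 probes tested, is under 0.05. Where a probe was measured on no array of a nucleus, a ratio is a lower bound and is written as "at least", with the adjusted p of the model and no log2 difference. Other ratios are those of geometric means, and where 1 of the 2 arrays of the dimmer nucleus measured a probe and the ratio to that array alone is over 1.5 times smaller, both are given. Levels of different probes were not compared. The 2 arrays of a nucleus correlated at 0.981 in the Arc, 0.978 in the VMH, and 0.971 in the DMH over the probes tested. LH2 stood closer to DMH2 (0.954) than to LH1 (0.938), so the results on the LH are also given without each LH array. Markers of Arc and VMH neurons were brightest in the nuclei on the labels. The summed signal of *Agrp*, *Npy*, *Pomc*, *Kiss1*, and *Ghrh* was 145900 to 155200 in the Arc and at most 6017 elsewhere, and that of *Nr5a1* and *Fezf1* was 17670 to 19750 in the VMH and at most 774.5 elsewhere. *Npvf*, *Grp*, *Prdm13*, and *Skor1* summed to 9792 to 12170 in the DMH and to at most 1084 elsewhere, but the study chose these genes on the same arrays for being high in the DMH, so their sum is no independent check of that label. *Hcrt* and *Pmch*, made by LH neurons, summed to 123600 to 133700 in the LH and also to 62910 to 72190 in the DMH. In tissue samples such as these, fewer cells of a type and less RNA per cell cannot be told apart.

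Many of the homeobox genes differed among the 4 nuclei. Of the 67 probes, 47 probes of 42 genes were measured on 2 arrays of some nucleus and could be tested, and 27 probes of 26 genes passed the limma F-test over the 4 nuclei, against 8.34% of all probes tested. A probe that is measured in 1 nucleus and dim in the others passes this filter because it differs. Among probes measured on all 8 arrays, where that does not arise, 7 of 24 homeobox probes (*Hmx3*, *Isl1*, *Meis1*, *Nkx2-1*, *Nkx2-2*, *Pou3f1*, and *Pou3f3*) were called, against 6.51% of all such probes. The listed genes were chosen with earlier results of these data known, so these shares and those given below are no independent test. Homeobox genes outside the list passed the F-test with 15 of 51 probes tested. The median of the widest log2 difference between 2 nuclei was 1.94 over the homeobox probes tested and 0.65 over all probes, and over the probes measured on all 8 arrays it was 1.05 for the 24 homeobox probes and 0.57 for all 22747. By class the F-test called 5 of 6 LIM probes, 11 of 13 ANTP probes, 2 of 3 PRD-like probes, both SINE probes, 4 of 6 POU probes, 1 of 2 CUT probes, 2 of 12 TALE probes, and none of 3 ZF probes, of which 2 were under an unadjusted p of 0.05 in limma, as were 24.6% of all probes. Without Arc1 or without Arc2 the number of probes called was 15.

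**Figure D1:**
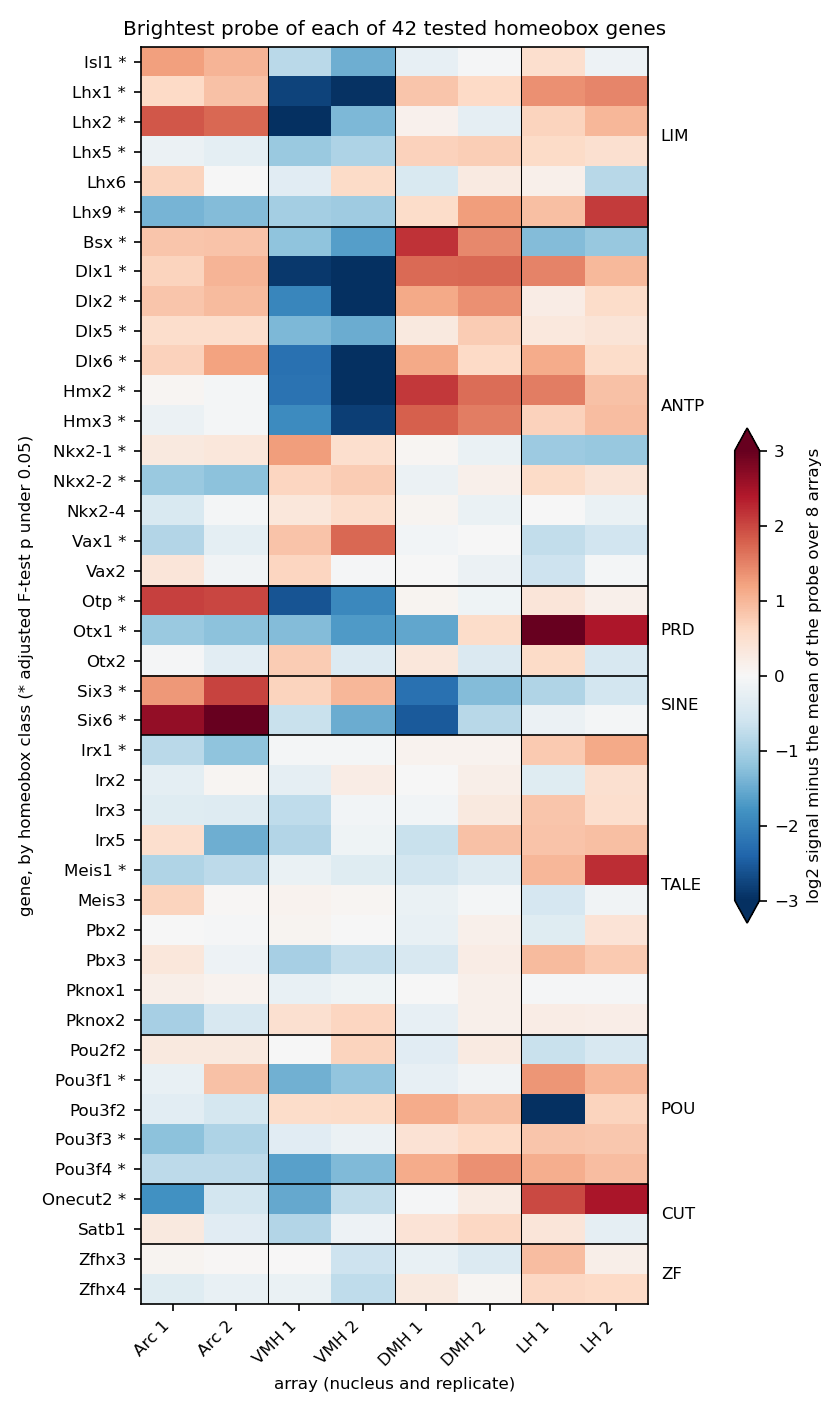
Log2 signal of the brightest probe of each of the 42 tested homeobox genes (rows, by class) on the 8 arrays (columns), minus the mean of the probe over the arrays, so that red is above and blue below that mean. An asterisk marks the 25 genes whose brightest probe had an adjusted F-test p under 0.05, and the blue block in the VMH columns holds the *Dlx* and *Hmx* genes, *Lhx1*, and *Otp*.

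Several homeobox genes had a low signal in the VMH. *Dlx1*, *Dlx2*, *Dlx5*, *Dlx6*, *Hmx2*, *Hmx3*, *Lhx1*, and *Otp*, or 8 of the 47 homeobox probes tested (17%), were lower in the VMH than in each of the other nuclei, against 0.484% of all probes tested. The VMH arrays measured *Dlx1*, *Dlx2*, *Dlx6*, and *Lhx1* not at all, and such probes pass the filter through the nuclei where they are high. Among the probes measured on all 8 arrays, 1 of 24 homeobox probes (*Hmx3*) showed this pattern, against 0.312% of all such probes. None of the homeobox probes was lower in the Arc, the DMH, or the LH than in each other nucleus, where all probes gave 0.457%, 0.0173%, and 0.163%. At an unadjusted p under 0.05 in the same limma model these counts were 4 (*Irx1*, *Nkx2-2*, *Pknox2*, and *Pou3f3*), 1 (*Six3*), and 1 (*Nkx2-1*), against 3.56%, 0.27%, and 2.97% of all probes, and the count for the VMH was 14, against 2.32%. Leaving out 1 array at a time left between 5 and 8 of the 8 genes called, with the fewest without DMH1 (*Dlx1*, *Dlx2*, *Dlx5*, *Hmx3*, and *Lhx1*) or without VMH2 (*Dlx1*, *Dlx2*, *Hmx3*, *Lhx1*, and *Otp*, to which *Lhx2* was added).

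The 4 *Dlx* genes, which drive the formation of GABAergic neurons in the forebrain, shared this pattern. *Dlx1* had scaled signals of 925.8 and 1167 in the Arc, 77.2 and 22.5 in the VMH, 1895 and 1921 in the DMH, and 1620 and 1141 in the LH. Neither VMH array measured it, so its signal in the DMH was at least 18.4-fold, in the LH at least 13.1-fold, and in the Arc at least 10.0-fold above the VMH. The adjusted p of the difference between the DMH and the VMH was 0.00508. Its neighbour *Dlx2* had 614.3 and 666.6 in the Arc, 88.7 and 38.7 in the VMH, 756.7 and 888.9 in the DMH, and 401.7 and 502.8 in the LH. Neither VMH array measured it, and *Dlx2* was at least 7.89-fold above the VMH in the DMH (adjusted p = 0.00562). *Dlx6* had 274.6 and 392.8 in the Arc, 36.0 and 20.4 in the VMH, 369.8 and 254.3 in the DMH, and 367.3 and 247.1 in the LH. Its signal was at least 3.16-fold above the VMH in the Arc (adjusted p = 0.00378), and the arrays of the 3 other nuclei overlapped. *Dlx5* had 576.4 and 568 in the Arc, 156.7 and 141.5 in the VMH, 489.5 and 669.9 in the DMH, and 498 and 519.1 in the LH. It was measured on 1 of the 2 VMH arrays and was 3.84-fold higher in the DMH than there (1.94 ± 0.22, adjusted p = 0.00876). The adjusted F-test p of *Dlx5* was 0.0512 without VMH1 and 0.058 without VMH2. Over the 8 arrays the log2 signals of neighbours correlated at 0.98 for *Dlx1* and *Dlx2* and at 0.96 for *Dlx5* and *Dlx6*. Pairs that are not neighbours came as close, with 0.96 and 0.98 for *Dlx1* with *Dlx5* and *Dlx6*, and 0.97 and 0.96 for *Dlx2*. These values describe probes that share the same arrays. *Dlx1* and *Dlx6* overlap annotated antisense genes, and the labelled cDNA does not keep the strand, so the 2 sources cannot be told apart.

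*Hmx2* and *Hmx3*, neighbouring genes that are needed for the growth hormone-releasing hormone neurons of the Arc, were lowest in the VMH as well. *Hmx2* had 793.2 and 735.5 in the Arc, 164 and 48.8 in the VMH, 3330 and 2431 in the DMH, and 2202 and 1401 in the LH. It was measured on 1 VMH array and was 31.8-fold higher in the DMH (4.99 ± 0.54, adjusted p = 0.00747), 19.6-fold higher in the LH (4.29 ± 0.54, adjusted p = 0.00857), and 8.51-fold higher in the Arc (3.09 ± 0.54, adjusted p = 0.0219). Against VMH1, the array that measured it, these ratios lay between 4.66 in the Arc and 17.3 in the DMH. *Hmx3* had 809.8 and 876.3 in the Arc, 248.7 and 129.7 in the VMH, 3185 and 2660 in the DMH, and 1489 and 1746 in the LH. It was measured on all 8 arrays and was 16.2-fold above the VMH in the DMH (4.02 ± 0.32, adjusted p = 0.00277). Both DMH arrays lay above every other array for *Hmx2* and for *Hmx3*, but the 1.62-fold difference of *Hmx2* between the DMH and the LH did not pass the test (adjusted p = 0.551). The 2 genes correlated at 0.99 over the 8 arrays.

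*Lhx1*, a LIM factor that couples the cells of the suprachiasmatic clock in adults, had 354.9 and 432.2 in the Arc, 34.7 and 30.4 in the VMH, 419.1 and 357.9 in the DMH, and 607.9 and 656.9 in the LH. Neither VMH array measured it, and it was at least 6.08-fold above the VMH in the LH (adjusted p = 0.000386). *Otp*, which is required for the neurosecretory neurons of the hypothalamus, had 1896 and 1845 in the Arc, 76.9 and 121.5 in the VMH, 490.2 and 418.6 in the DMH, and 591 and 513.1 in the LH. The Arc arrays stood above and the VMH arrays below all others. *Otp* was in the Arc 19.3-fold above the VMH, where 1 array measured it (4.27 ± 0.26, adjusted p = 0.000608), and 4.69-fold above the VMH in the DMH (2.23 ± 0.26, adjusted p = 0.0101). The neurons of the paraventricular nucleus (PVN), which lies near these nuclei, also use *Otp*. The summed signal of the PVN markers *Crh*, *Oxt*, *Avp*, and *Sim1* was 1177 to 6971 in the Arc, 540.6 to 1418 in the VMH, 2245 to 2832 in the DMH, and 5355 to 14460 in the LH, with *Sim1* measured on no array, and its part in the result was not tested.

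To show the sequence in front of genes that were low in the same nucleus, the 120 bases before the annotated start of each such gene in the RefSeq table of promoters (build GRCm38.p6) are printed 5′ to 3′ on the strand of the gene, with CG dinucleotides in capitals. They lie at chr2:71529325-71529444 on the plus strand for *Dlx1*, chr2:71546755-71546874 on the minus strand for *Dlx2*, chr7:131548637-131548756 on the plus strand for *Hmx2*, chr7:131542843-131542962 on the plus strand for *Hmx3*, chr11:84525535-84525654 on the minus strand for *Lhx1*, and chr13:94875516-94875635 on the plus strand for *Otp*.
Dlx1: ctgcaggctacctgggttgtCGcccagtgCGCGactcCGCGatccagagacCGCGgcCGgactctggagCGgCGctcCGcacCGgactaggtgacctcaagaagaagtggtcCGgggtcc
Dlx2: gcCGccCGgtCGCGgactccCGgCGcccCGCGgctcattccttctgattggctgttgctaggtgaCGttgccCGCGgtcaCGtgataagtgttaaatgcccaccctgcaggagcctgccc
Hmx2: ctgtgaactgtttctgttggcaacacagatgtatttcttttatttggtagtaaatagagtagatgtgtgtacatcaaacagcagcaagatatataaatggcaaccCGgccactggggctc
Hmx3: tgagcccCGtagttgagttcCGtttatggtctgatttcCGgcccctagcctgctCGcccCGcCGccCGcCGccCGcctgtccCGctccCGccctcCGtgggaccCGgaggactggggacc
Lhx1: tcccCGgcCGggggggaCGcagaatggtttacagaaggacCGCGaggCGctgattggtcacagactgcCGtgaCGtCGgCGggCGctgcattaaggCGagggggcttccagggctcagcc
Otp: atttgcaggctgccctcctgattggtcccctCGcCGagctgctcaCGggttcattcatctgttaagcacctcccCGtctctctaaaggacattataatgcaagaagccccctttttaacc

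*Hmx2* and *Hmx3*, whose signals correlated at 0.99, differ in these stretches, with 1 CG and 40.8% G or C in *Hmx2* and 13 CG and 71.7% in *Hmx3*. The stretches of *Dlx1*, *Dlx2*, and *Lhx1* hold 13, 12, and 12 CG, and that of *Otp* holds 4. Over the 250 bases before the start, the median G or C content was 61.6% in the promoters of 39 listed genes that the table holds and 52.4% in all promoters, and the median number of CG was 14 against 6. In these 250 bases 3 motifs, none of which contains another, were searched on both strands. TAATTA, a core bound by many homeodomains, was found in 4.84% of all 32851 promoters and in 2 of the 51 promoters of the listed genes (3.92%), both of *Otx2*. CAAGTG, the core bound by factors like Nkx2-1, was in 11.6% of all promoters and in 5.88% of those of the listed genes (*Lmx1a*, *Nkx2-2*, and *Satb1*). TGACAG, the core bound by TALE factors, was in 15.9% of all promoters and in 9.8% of those of the listed genes (*Lhx1*, *Lhx9*, *Six3*, *Six6*, and *Pou4f1*). A match is a description of the letters and shows no binding.

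**Figure D2:**
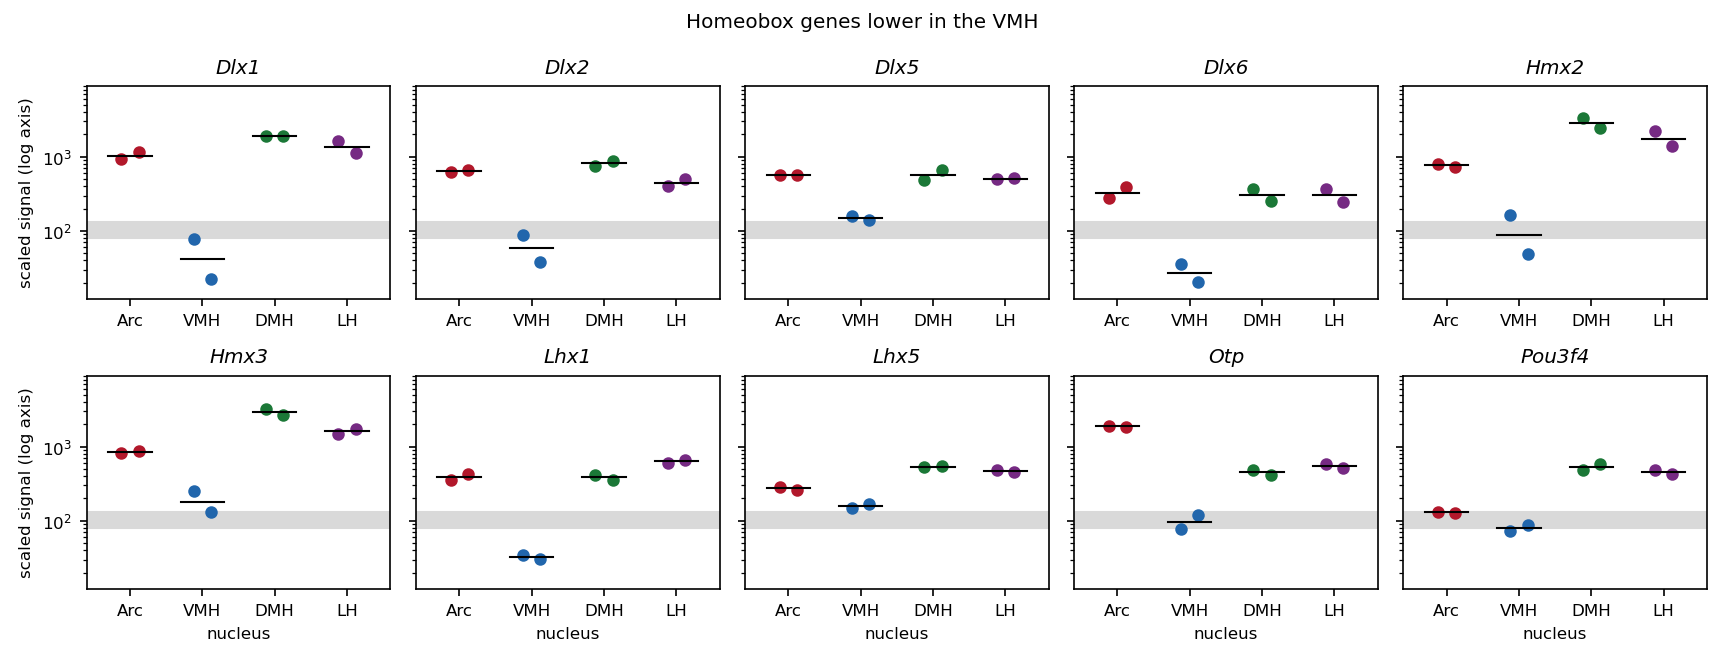
Scaled signal (log axis) of 10 homeobox genes on the 2 arrays of each nucleus (points), with the geometric mean of the nucleus (line) and the range of the dimmest measured signals of the 8 arrays (grey band). In every panel both VMH arrays lie below the arrays of the other nuclei, and for *Dlx1*, *Dlx2*, *Dlx6*, *Lhx1*, and *Pou3f4* neither VMH array was measured.

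Genes higher in the Arc were fewer. *Otp*, *Six6*, and *Pou2f2*, the last through its dimmer probe alone, were higher in the Arc than in all 3 other nuclei. These were 3 of the 47 homeobox probes tested (6.38%), against 0.339% of all probes. Among the probes measured on all 8 arrays the count was 0 of 24, against 0.167% of all such probes. Without Arc1 or without Arc2 this count was 0. It was *Six6* alone without DMH1, without DMH2, or without scaling of the arrays, *Otp* alone without VMH2, and *Otp* and *Six6* without VMH1. *Six6*, a factor of the eye and the gonadotropin-releasing hormone axis, had 900.1 and 1293 in the Arc, 91.2 and 51.5 in the VMH, 25.2 and 81.6 in the DMH, and 127.9 and 139.2 in the LH. It was measured only on the Arc arrays and was at least 11.5-fold higher there than in the DMH (adjusted p = 0.0142), at least 10.4-fold above the VMH (adjusted p = 0.00962), and at least 8.09-fold above the LH (adjusted p = 0.0201). *Six3*, its relative in the specification of the forebrain, had 1611 and 2655 in the Arc, 1028 and 1299 in the VMH, 138.9 and 264.7 in the DMH, and 345.7 and 443.5 in the LH. *Six3* was in the Arc 10.8-fold above the DMH, where 1 array measured it (3.43 ± 0.38, adjusted p = 0.0105), 5.28-fold above the LH in the Arc (adjusted p = 0.0127), and 6.02-fold above the DMH in the VMH (adjusted p = 0.0219). A *Six3* antisense gene overlaps it. Windows around TGACAG (capitals) in front of the start of *Six6*, at chr12:72939816-72939861 on the plus strand, and of *Six3*, at chr17:85620675-85620720 on the plus strand, are shown because the motif is found in front of both genes.
Six6: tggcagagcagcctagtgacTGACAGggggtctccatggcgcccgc
Six3: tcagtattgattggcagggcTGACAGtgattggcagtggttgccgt
The suprachiasmatic nucleus lies near the front of the Arc. The summed signal of its markers *Vip* and *Prok2* was 627.2 to 1346 in the Arc and at most 64.1 elsewhere, with *Vip* measured on no array, and its part in these results was not tested. The adjusted F-test p of *Six6* was 0.0695 without Arc1 and 0.0902 without Arc2.

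*Lhx2*, a LIM factor of the eye field and of tanycytes, had 2105 and 1907 in the Arc, 43.2 and 226.9 in the VMH, 628.1 and 475.8 in the DMH, and 915.5 and 1153 in the LH. Its 2 Arc arrays were highest and its 2 VMH arrays lowest. *Lhx2* was 20.3-fold higher in the Arc (4.34 ± 0.68, adjusted p = 0.0147) and 10.4-fold higher in the LH (3.38 ± 0.68, adjusted p = 0.0375) than in the VMH, where 1 array measured it. Against VMH2, the array that measured it, these ratios were 8.83 and 4.53. The summed signal of 5 markers of ependymal cells and tanycytes was 2701 to 2895 in the Arc and at most 1933 elsewhere, 1 of the 5 passed the F-test, *Foxj1* and *Tmem212* were measured on no array, and their part in the result on *Lhx2* was not tested. *Isl1*, a LIM factor that activates *Pomc* in Arc neurons, had 1228 and 1068 in the Arc, 302.4 and 189.5 in the VMH, 441.5 and 511.1 in the DMH, and 747.8 and 471 in the LH. It was 4.79-fold above the VMH in the Arc (2.26 ± 0.32, adjusted p = 0.0102), and the Arc arrays lay above all others, but the 1.93-fold difference from the LH did not pass the test (adjusted p = 0.115). *Pou2f2*, a POU factor first described in B cells, gave different results by probe. Its brighter probe had 1779 to 4478 on the 8 arrays with an adjusted F-test p of 0.246, while its dimmer probe had 203.1 and 237.1 in the Arc, 68.1 and 58.8 in the VMH, 90.3 and 84.6 in the DMH, and 75.9 and 66.2 in the LH, was measured on no array outside the Arc, and was at least 2.34-fold above the DMH in the Arc (adjusted p = 0.0347). The dimmer probe was past the threshold on all arrays and not without Arc1 (0.0589) or Arc2 (0.0804). The F-tests of *Lhx2* (0.0742 to 0.128) and *Isl1* (0.0567 to 0.134) also missed the threshold without 1 Arc array or 1 DMH array, and that of *Isl1* without 1 VMH array.

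Of the called genes, 3 had their highest mean in the VMH. None was higher there than in all 3 other nuclei by limma, where 0.54% of all probes were, and at an unadjusted p under 0.05 the 2 *Vax1* probes were, against 2.27% of all probes. *Nkx2-1*, which specifies the ventral hypothalamus, had 2533 and 2602 in the Arc, 4902 and 2943 in the VMH, 2173 and 1794 in the DMH, and 972.6 and 939.4 in the LH. It was measured on all 8 arrays, with the LH arrays below all others. *Nkx2-1* was 3.97-fold higher in the VMH (1.99 ± 0.28, adjusted p = 0.0116) and 2.69-fold higher in the Arc (1.43 ± 0.28, adjusted p = 0.0238) than in the LH, while the 2.07-fold difference between the DMH and the LH (1.05 ± 0.28, adjusted p = 0.163) and the 1.92-fold difference between the VMH and the DMH (0.94 ± 0.28, adjusted p = 0.199) did not pass the test. *Nkx2-2*, a factor of the ventral neural tube and of oligodendrocyte precursors, had 1232 and 1144 in the Arc, 4136 and 4512 in the VMH, 2367 and 2969 in the DMH, and 3952 and 3501 in the LH. It was 3.63-fold higher in the VMH (1.86 ± 0.21, adjusted p = 0.00471) and 3.14-fold higher in the LH (1.65 ± 0.21, adjusted p = 0.0055) than in the Arc, and an antisense gene overlaps it. *Vax1*, a factor of the ventral forebrain and the optic nerve, had 94.98 and 141.1 in the Arc, 312.9 and 572.6 in the VMH, 165.4 and 174 in the DMH, and 104.6 and 116.8 in the LH. It was at least 3.6-fold above the LH in the VMH (adjusted p = 0.0238) and at least 3.55-fold above the Arc (adjusted p = 0.0232). Its second probe had 60.5 and 94.2 in the Arc, 388.3 and 509 in the VMH, 136.4 and 154.6 in the DMH, and 73.5 and 176.6 in the LH, and was at least 3.93-fold above the Arc in the VMH (adjusted p = 0.0194). Without 1 Arc array the adjusted F-test p was 0.079 to 0.0799 for *Nkx2-1*, 0.0661 to 0.0749 for *Nkx2-2*, and 0.0759 to 0.0959 for the brighter *Vax1* probe. It was also above the threshold for *Nkx2-1* without DMH1 (0.0542) or DMH2 (0.0548), and for that *Vax1* probe without VMH2 (0.127), DMH1 (0.0823), or DMH2 (0.0827). The second *Vax1* probe missed it without any 1 array of the Arc, the VMH, or the DMH (0.0956 to 0.196).

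**Figure D3:**
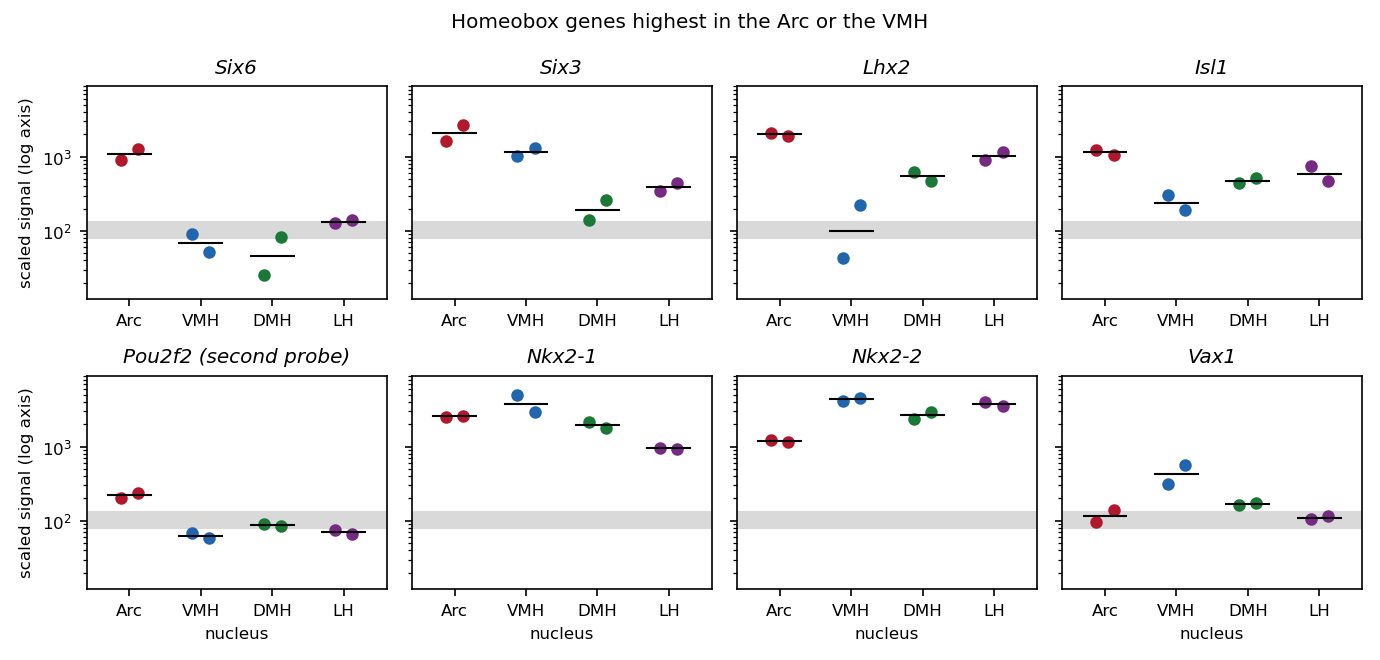
Scaled signal (log axis) of 8 homeobox genes on the 2 arrays of each nucleus (points), with the geometric mean of the nucleus (line) and the range of the dimmest measured signals of the 8 arrays (grey band). The Arc arrays lie above all others for *Six6*, *Lhx2*, *Isl1*, the second *Pou2f2* probe, and *Six3*, and the VMH arrays for *Nkx2-1*, *Nkx2-2*, and *Vax1*.

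In the DMH no homeobox gene was higher than in each other nucleus, a pattern that 0.0208% of all probes showed by limma, and at an unadjusted p under 0.05 *Bsx* and *Hmx3* were, against 0.311%. The genes with their highest mean in the DMH were *Dlx1*, *Dlx2*, *Dlx5*, *Hmx2*, *Hmx3*, *Bsx*, *Lhx5*, and *Pou3f4*. *Bsx*, which is required for *Agrp* and *Npy* expression and lies in the class of *Dlx*, had 105.6 and 106.2 in the Arc, 25.7 and 18.9 in the VMH, 266.3 and 159.8 in the DMH, and 23.8 and 26.7 in the LH. It was measured only on the DMH arrays, and was at least 2.02-fold above the LH there (adjusted p = 0.0153) and at least 1.99-fold above the VMH (adjusted p = 0.00384). With every dim signal raised to the dimmest measured one, the log2 difference between the VMH and the DMH was -0.99 and the adjusted F-test p 0.212. *Pou3f4*, a POU factor of the forebrain and the inner ear, had 130 and 129.1 in the Arc, 72.5 and 89.1 in the VMH, 486.4 and 577 in the DMH, and 478.7 and 422 in the LH. It was measured only in the DMH and the LH. *Pou3f4* was at least 5.08-fold above the VMH in the DMH (adjusted p = 0.00244) and at least 4.09-fold above the Arc (adjusted p = 0.00895). *Lhx5*, a LIM factor of the early forebrain, had 286.7 and 263 in the Arc, 150.4 and 170.8 in the VMH, 524.2 and 544 in the DMH, and 483.7 and 455.7 in the LH. It was 3.34-fold higher in the DMH (1.74 ± 0.19, adjusted p = 0.00771) and 2.93-fold higher in the LH (1.55 ± 0.19, adjusted p = 0.00811) than in the VMH, where 1 array measured it. Its adjusted F-test p was 0.0507 without VMH1. Between *Lhx5* and *Pou3f4* the log2 signals correlated at 0.98 over the 8 arrays. That is among the highest values over all pairs of called genes, which share the arrays, and *Pou3f4* was measured on 4 of the arrays.

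Of the called genes, 8 had their highest mean in the LH, *Lhx1* among them. None passed the limma test against all 3 other nuclei, where 0.484% of all probes did, and at an unadjusted p under 0.05 there were 6 (*Irx1*, *Lhx1*, *Meis1*, *Onecut2*, *Otx1*, and *Pbx3*), against 3.84% of all probes. *Onecut2*, a CUT factor, had 125.1 and 299.2 in the Arc, 152.2 and 265.1 in the VMH, 425.6 and 523.9 in the DMH, and 1725 and 2388 in the LH. The LH arrays stood above all others. *Onecut2* was in the LH 10.5-fold above the Arc, where 1 array measured it (3.39 ± 0.46, adjusted p = 0.00693) and the ratio to that array was 6.78, and 10.1-fold above the VMH (3.34 ± 0.46, adjusted p = 0.0115), while the 4.29-fold difference from the DMH missed the threshold (adjusted p = 0.107). *Otx1*, a PRD-like factor of the forebrain and of cortical layers, had 29.2 and 26.9 in the Arc, 25.5 and 19.5 in the VMH, 21.4 and 92.8 in the DMH, and 929.9 and 336.9 in the LH. It was measured only on the LH arrays, which differed from each other, and was at least 5.39-fold above the VMH in the LH (adjusted p = 0.0165) and at least 4.95-fold above the Arc (adjusted p = 0.0145). It was at least 5.98-fold above the DMH in the LH, where the test missed the threshold (adjusted p = 0.0792). *Meis1*, a TALE cofactor, had 217.7 and 235 in the Arc, 354.4 and 316 in the VMH, 278.2 and 311.4 in the DMH, and 807.3 and 1905 in the LH. It was 5.46-fold above the Arc in the LH (2.45 ± 0.38, adjusted p = 0.0115) and 3.71-fold above the VMH (1.89 ± 0.38, adjusted p = 0.0381), and the 4.20-fold difference from the DMH did not pass (adjusted p = 0.0655).

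*Lhx9*, a LIM factor that promotes hypocretin expression, had 76.4 and 82.1 in the Arc, 98.9 and 95.2 in the VMH, 292.4 and 479.4 in the DMH, and 374.2 and 861.4 in the LH. It was measured in the DMH and the LH alone, whose arrays overlapped, and was at least 5.26-fold above the VMH in the LH (adjusted p = 0.0198). Of its 2 dimmer probes, 1 was measured on LH1 and the other on no array. *Pou3f1*, a POU factor of myelinating cells and of some neurons, had 565.7 and 1213 in the Arc, 242.4 and 288.1 in the VMH, 553.6 and 605.7 in the DMH, and 1637 and 1319 in the LH, and was 5.58-fold above the VMH in the LH (2.48 ± 0.36, adjusted p = 0.0137). *Pou3f3*, a POU factor of cortical and hypothalamic neurons, had 340.8 and 418.4 in the Arc, 630.7 and 709.4 in the VMH, 1075 and 1202 in the DMH, and 1419 and 1402 in the LH. The arrays of *Pou3f3* fell into separate steps by nucleus, from the Arc over the VMH and the DMH to the LH, and the 3.73-fold difference of the LH from the Arc (1.90 ± 0.21, adjusted p = 0.00345) and the 3.01-fold difference of the DMH from the Arc (1.59 ± 0.21, adjusted p = 0.0173) passed the test, while the DMH and the LH differed by 1.24-fold (adjusted p = 0.486). *Irx1*, an Iroquois gene of the TALE class, had 163.8 and 125.4 in the Arc, 275.8 and 277.8 in the VMH, 311.6 and 307.5 in the DMH, and 499.9 and 628.8 in the LH. It was in the LH 3.92-fold above the Arc, where 1 array measured it (1.97 ± 0.22, adjusted p = 0.00404).

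Oligodendrocyte markers were brightest on the LH arrays. All 8 oligodendrocyte markers passed the F-test, with a summed signal of 108200 to 113900 in the LH, 32200 to 39990 in the VMH, 28350 to 28900 in the DMH, and 11900 to 19410 in the Arc. The 6 astrocyte markers, of which 2 passed, summed to 54570 to 55440 in the LH and to at most 37410 elsewhere. Their part in the results on *Onecut2*, *Otx1*, *Meis1*, *Lhx9*, *Pou3f1*, *Pou3f3*, *Irx1*, and *Nkx2-2* was not tested. Without LH2 the homeobox genes higher in the LH than in all 3 other nuclei were *Meis1*, *Otx1*, *Lhx9*, and *Lhx6* through a dim probe, and without LH1 they were *Meis1* and *Lhx8*, so the count of 0 depends on both arrays. The F-tests missed the threshold for *Otx1* without LH1 (0.0581), without 1 Arc array (0.0822 to 0.0842), or without 1 VMH array (0.0813 to 0.0842), for *Lhx9* without 1 Arc or VMH array (0.0588 to 0.0746), for *Meis1* without 1 Arc, VMH, or DMH array (0.0708 to 0.104), for *Pou3f1* without 1 VMH or DMH array (0.0692 to 0.144), for *Irx1* without Arc2 (0.0731), and for *Pou3f3* without Arc1 (0.0549).

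**Figure D4:**
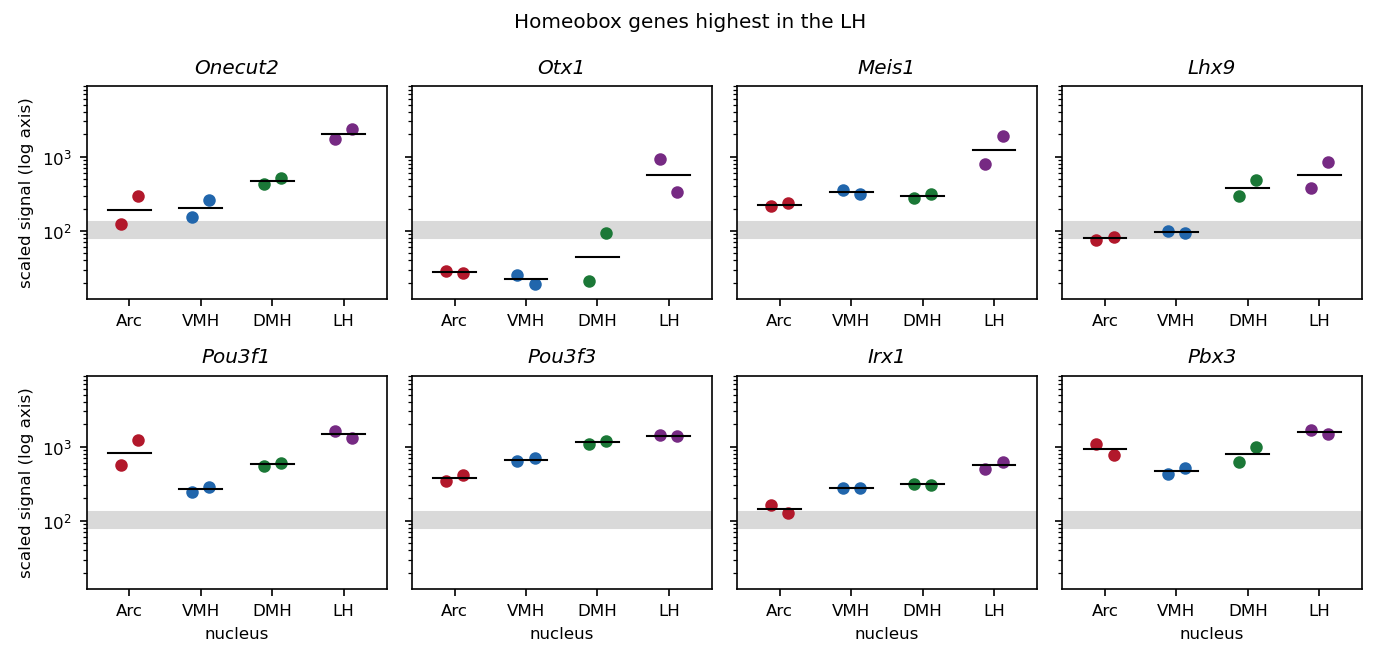
Scaled signal (log axis) of 8 homeobox genes on the 2 arrays of each nucleus (points), with the geometric mean of the nucleus (line) and the range of the dimmest measured signals of the 8 arrays (grey band). The LH arrays lie above all others for every gene shown except *Lhx9*, whose DMH and LH arrays overlap.

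Set side by side, the pairs of nuclei differed in how many homeobox genes separated them, pairs that share a nucleus share its arrays, and the shares of all probes stand beside counts out of 47 homeobox probes. In the Arc against the VMH, 14 genes were higher in the Arc (all probes 2.4%), among them the 4 *Dlx* genes, both *Hmx* genes, *Bsx*, *Isl1*, *Lhx1*, *Lhx2*, *Otp*, *Pou2f2*, *Pou3f1*, and *Six6*, and *Nkx2-2*, *Pknox2*, and *Vax1* were lower (4 probes, all probes 3.52%). In the VMH against the LH, 18 genes were lower in the VMH (all probes 3.04%) and *Nkx2-1* and *Vax1* were higher (2.24%). In the VMH against the DMH, 11 genes were lower in the VMH (0.945%) and *Six3* was higher (1.1%). In the Arc against the LH, 6 genes were higher in the Arc (*Bsx*, *Nkx2-1*, *Otp*, *Pou2f2*, *Six3*, and *Six6*, all probes 3.33%) and 8 were lower (*Irx1*, *Lhx9*, *Meis1*, *Nkx2-2*, *Onecut2*, *Otx1*, *Pou3f3*, and *Pou3f4*, all probes 6.02%). In the Arc against the DMH, *Otp*, *Pou2f2*, *Six3*, and *Six6* were higher in the Arc (0.533%) and *Pou3f3* and *Pou3f4* were lower (0.727%). In the DMH against the LH, *Bsx* was higher in the DMH (0.26%) and no gene was lower (0.664%), with 10 lower in the DMH at an unadjusted p under 0.05 in limma, as were 8.59% of all probes. The calls of *Bsx* between the Arc and the VMH and between the Arc and the LH compare signals that were measured on no array. Those of *Pou2f2* came from its dimmer probe alone, which was measured on no array outside the Arc. Without LH1 or LH2, 16 and 15 genes separated the Arc from the LH in place of 14, and 20 and 21 the VMH from the LH in place of 20. The DMH and the LH were separated by 3 and 6 genes in place of 1. Without DMH1 no gene separated the DMH from the LH, and 3 did without DMH2. Without Arc1 or Arc2, 7 and 6 genes separated the Arc from the LH in place of 14, 9 and 7 the Arc from the VMH in place of 17, and 1 and 0 the Arc from the DMH in place of 6. The Arc and the DMH were separated by 1 gene without DMH1 and by 3 without DMH2, and the VMH and the DMH by 7 in place of 12 without DMH1. Without VMH2, 10 genes separated the Arc from the VMH, and without VMH1 or VMH2, 10 and 12 genes separated the VMH from the LH in place of 20.

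**Figure D5:**
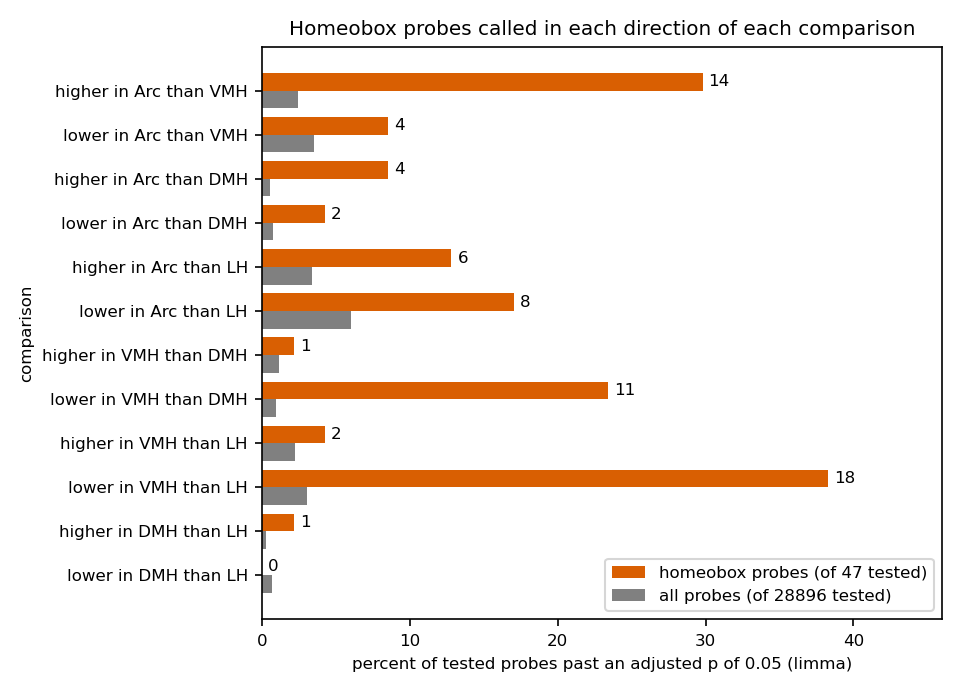
Percent of probes past an adjusted p of 0.05 (horizontal axis) in each direction of the 6 comparisons of 2 nuclei (vertical axis), for the 47 tested homeobox probes (orange, with the number called at the end of the bar) and all 28896 tested probes (grey). The longest orange bars are those for genes lower in the VMH than in the LH (18) and higher in the Arc than in the VMH (14).

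The TALE class holds the Iroquois genes and cofactors that bind DNA together with other homeodomain proteins. There the limma F-test called 2 of 12 probes (*Meis1* and the Iroquois gene *Irx1*), against 8.34% of all probes. At an unadjusted p under 0.05 there were 5, against 24.6% of all probes. *Pbx2* (984.9 to 1675 over the 8 arrays, adjusted p = 0.993), *Pknox1* (604.9 to 804.7, adjusted p = 0.594), and *Meis3* (6214 to 13990, adjusted p = 0.404) each varied by at most 2.25-fold over the 8 arrays. *Pbx3* (431.7 to 1669) was 3.32-fold above the VMH in the LH (1.73 ± 0.30, adjusted p = 0.024) with an F-test just outside the threshold (adjusted p = 0.0516), and *Pknox2* (528.7 to 1659) was 2.48-fold above the Arc in the VMH (1.31 ± 0.26, adjusted p = 0.0315, F-test 0.0701). The Iroquois genes *Irx2* (112.9 to 199.9), *Irx3* (202.3 to 603), and *Irx5* (26.6 to 136.2, measured on 3 arrays) did not pass. The neighbours *Irx3* and *Irx5* correlated at 0.76 and *Irx1* and *Irx2* at 0.28 over the 8 arrays. *Irx2* varied by 1.77-fold and *Irx5* was dim, so these values cannot be set against those of the *Dlx* and *Hmx* pairs. 

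Of the 17 tested genes whose brightest probe missed the F-test, those outside the TALE class were *Lhx6*, *Nkx2-4*, *Otx2*, *Pou2f2*, *Pou3f2*, *Satb1*, *Vax2*, *Zfhx3*, and *Zfhx4*. *Zfhx3*, a zinc finger factor of the suprachiasmatic clock, ranged from 1952 to 5666 and *Zfhx4* from 464.4 to 1223, and *Otx2* from 820.8 to 1941. *Lhx6*, a LIM factor of GABAergic neurons, ranged from 16150 to 45700 on its brightest probe (adjusted p = 0.723), but of its 2 other probes 1 was measured on LH1 alone and the other on no array, so the probes disagree. *Vax2* ranged from 18100 to 43240 (adjusted p = 0.518). A miss does not show that the nuclei are alike, since 2 arrays a nucleus leave wide errors. The 11 genes that could not be tested were *Barhl1*, *Barhl2*, *Gbx2*, *Isl2*, *Lhx8*, *Lmx1a*, *Lmx1b*, *Meis2*, *Onecut1*, *Onecut3*, and *Pou4f1*. No array measured 8 of them, and *Barhl2*, *Lhx8*, and *Lmx1b* were each measured on 1 array.

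Other homeobox genes and partners of homeodomain proteins were counted as well. Of 129 further homeobox genes, 40 could be tested and 14 passed the F-test (15 of 51 probes, against 8.34% of all probes). *Gsx1*, known in forebrain GABAergic progenitors, was lower in the VMH than in each other nucleus, as was *Hopx*, which lacks DNA binding. *Gsx1* had 1250 and 1128 in the Arc, 51.7 and 35.2 in the VMH, 761.6 and 746 in the DMH, and 1219 and 1091 in the LH, and was at least 11.4-fold above the VMH in the Arc (adjusted p = 0.000384). *Rax*, a factor of the eye field and of tanycytes, had 1738 and 1360 in the Arc and 28.4 to 120.1 on the other arrays, where the summed signal of the markers of ependymal cells and tanycytes given above was also lower, and their part was not tested. Among the 10 with the widest differences were also *Nkx2-9*, *Zhx2*, *Msx1*, *Zeb2*, and *Tshz2*. Of 24 partners and corepressors, 20 could be tested and 5 passed (6 of 28 probes, against the same 8.34%). *Ldb2*, a cofactor that joins LIM proteins, was higher in the VMH (15060 and 13150) than in each other nucleus (3112 to 6926 on the other arrays), by 2.33-fold against the Arc (1.22 ± 0.24, adjusted p = 0.0309) and 4.14-fold against the LH (2.05 ± 0.24, adjusted p = 0.00675). The LIM-only gene *Lmo4* was 2.22-fold above the LH in the VMH on its brighter probe (1.15 ± 0.25, adjusted p = 0.0483) and 3.68-fold on its dimmer probe (1.88 ± 0.25, adjusted p = 0.0102), whereas *Lmo2* was 3.76-fold above the VMH in the LH (1.91 ± 0.24, adjusted p = 0.0083). *Tle4*, through its dimmer probe, and *Eya2* had their highest means in the LH.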

How the data were processed

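The 8 arrays were 1-color Agilent arrays of laser-microdissected nuclei of 2 female mice, with the RNA amplified as cDNA before labelling, on 1 slide. The authors deposited an intensity for every spot, the processed signal of Agilent Feature Extraction, which is background-subtracted and not scaled between arrays (version 11.5.1.1 in the labels and 10.7.3.1 in the file headers). The dye is Cy3 in the labels and Cy5 in the methods, while red signals were deposited. The deposited marks for spots well above background, for outliers, and for saturation (other values) were used, and 0 spots were saturated. Between 47.1% and 52.7% of spots per array were well above background.

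Outlier spots were left out, spots were averaged per probe, each array was divided by its 75th percentile (815 to 1239 before scaling), and log2 was taken. limma 3.58.1 in R 4.3.3 fitted 1 model with a mean for each nucleus on all 8 arrays (4 residual and 3.02 prior degrees of freedom) to 28896 of 55681 probes, those well above background on 2 arrays of some nucleus. Each pairwise and F-test p was adjusted over all 28896 probes (Benjamini and Hochberg) and called under 0.05. A gene called higher or lower in a nucleus than in each other passed all 3 comparisons. The lower bound of a ratio set the mean of the brighter nucleus against the mean of the higher of the signal of the probe and the dimmest measured signal on each array.

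Names came from RefSeq accessions matched to GRCm38.p6 (26762 of 28390 probes, 94.3%). All listed genes are named, values on every array are given for probes past the F-test and *Nkx2-1*, and of the further homeobox genes the 10 and of the partners the 5 with the widest differences are named. Some results of the further homeobox genes are not reported here. The genes and lists were chosen with earlier results of these data known. The counts of genes lower in a nucleus than in each other and the counts and the median over probes measured on all 8 arrays were added after values were seen. The code was tested on simulated data. The alternatives were no scaling, quantile normalization, normexp with an offset of 50, no filter on dim probes, the table of all arrays, a floor on dim signals, the replicate number as a block, and each array left out in turn.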

Additional observations from a re-analysis of the deposited data

How the results depend on the processing

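The widest difference of none of the 27 probes past the F-test reversed its direction under any alternative (the direction of other differences was not followed), and quantile normalization and the table of all arrays moved no count of homeobox probes by over 1.5 times. The count of probes higher in the Arc than in all others was 1 without scaling. The count higher in the LH was 3 with normexp (*Meis1*, *Onecut2*, and *Otx1*), 1 without the filter on dim probes, 2 with the floor, and 1 with the replicate block, in place of 0. The count between the DMH and the LH was 3, 2, 2, and 2 under the same settings in place of 1. With normexp (*Meis1*, *Onecut2*, and *Otx1*) and with the floor (*Meis1* and *Otx1*) *Bsx*, the gene called above, was not among them. The count lower in the Arc was 1 (*Nkx2-2*) with normexp or the floor in place of 0. With the floor *Lhx2* took the place of *Dlx6* among the 8 genes lower in the VMH. The cause was not tested. Leaving out 1 array at a time gave 15 to 30 probes past the F-test, 0 to 3 higher in the Arc, 0 to 1 in the VMH, 0 to 1 in the DMH, and 0 to 4 in the LH. The counts lower than in each other nucleus were 5 to 8 for the VMH, 0 to 2 for the Arc, and 0 to 1 for the LH. Between nuclei the ranges were 7 to 20 for the Arc and the VMH, 0 to 9 for the Arc and the DMH, 6 to 16 for the Arc and the LH, 7 to 14 for the VMH and the DMH, 10 to 23 for the VMH and the LH, and 0 to 6 for the DMH and the LH. A nucleus left with 1 array is assumed to vary like the others. Replicate numbers coincide with the row of the slide, and deviations of the same number correlated from -0.026 to 0.258 between nuclei over 28765 probes, so the numbers were not taken to pair the arrays. With the replicate block, 27 of the 27 probes past the F-test kept their call, but *Pou2f2* no longer differed between the Arc and the DMH, so that *Otp* and *Six6* alone were higher in the Arc than in all others, and *Pou3f1* no longer differed between the Arc and the VMH. The second *Pou2f2* probe lost its call without scaling (0.0502), with normexp (0.109), and with the floor (0.077), and the brighter *Vax1* probe without scaling (0.0597), with normexp (0.0909), and without the filter (0.0585). *Pou3f1* lost it without scaling (0.0637) and the second *Vax1* probe under quantile normalization (0.0535), with normexp (0.0566), and without the filter (0.0674). Many spots lie near the background, which limits dim genes.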

Other observations

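Some homeobox genes differed widely between the 2 arrays of a nucleus. *Barhl2*, a factor of the diencephalon and spinal cord, had a scaled signal of 2329 on DMH1 and 19.3 to 30.8 on the 7 other arrays, 20.4 on DMH2 among them. *Lhx8*, a factor of basal forebrain cholinergic neurons, had 192.2 on LH2 and 62.4 on LH1, and *Meis2*, which no array measured, had 118.7 on LH2 and at most 31.4 on the other arrays. *Pou3f2*, a POU factor of corticotropin-releasing hormone neurons, had 24.9 on LH1 and 312.5 on LH2 beside 368.4 and 427.4 in the DMH, was measured on every array but LH1, and did not pass the F-test (adjusted p = 0.435).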
